A study of Arabidopsis thaliana with 27 samples.

Results

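The 6 genes described here encode nuclear subunits of the photosystems and their antenna: LHCB4.1 and LHCB4.2 (antenna), PSBW and PSBY (photosystem II), and PSAE-1 and PSAN (photosystem I). They are listed by name, by a rule that uses no measured value but was proposed with earlier results of these data known, out of 13350 genes that have a probe set matching 1 gene only. Each of the 6 has 1 such probe set, and all 6 passed the filter on dim probe sets, so no member is missing from the tests. The data are 27 Affymetrix ATH1 arrays of total RNA from laser-dissected embryos of wild-type Arabidopsis thaliana Col-0 (stock N1092), grown in compost in a growth room. The groups are the apical and basal tissue of globular embryos, the cotyledon and root poles of heart-stage embryos, and the cotyledon, root, apical, basal and meristem tissue of torpedo embryos. Groups hold 3 arrays each, except torpedo cotyledon and torpedo root, which hold 2 each, and 25 arrays have a group. Another 2 torpedo arrays carry a title and a tissue description that contradict each other, and entered no comparison. The growth description of globular apical replicate 1 is worded differently from that of the other arrays and gives another humidity. The labels do not say how many embryos or plants a capture came from, nor where tissues were cut, so p-values measure the spread between arrays, which may be technical.

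Photosystems I and II are pigment-protein complexes of the thylakoid membrane that turn light into electron flow. Their reaction centre proteins are mostly encoded in the plastid, whereas the antenna proteins and many small subunits are encoded in the nucleus, made in the cytosol and imported. Arabidopsis embryos turn green during development and lose their chlorophyll again as the seed matures.

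Several array measures differed between groups before any gene was compared. The log2 ratio of the 3′ to the 5′ actin control probe sets, a measure of RNA and labelling quality, lay between 3.84 and 5.31 on the torpedo apical arrays and between 2.40 and 4.79 on the torpedo basal arrays. It lay between -0.98 and 0.52 on the globular apical arrays, between -1.83 and 0.35 on the globular basal arrays, and at -1.46 and -1.21 on the torpedo root arrays. The same ratio of the GAPDH control probe sets overlapped between the globular and torpedo arrays in apical and in basal tissue. It lay between 5.65 and 7.85 on the torpedo apical arrays, between 7.34 and 8.65 on the torpedo basal arrays, between 5.16 and 6.02 on the globular apical arrays and between 5.60 and 8.12 on the globular basal arrays, and at -3.28 on torpedo root 1. The hybridization controls, spiked into every sample, ranged from 379.8 to 71930 and exceeded 4 times their median on 4 arrays with a group: globular apical 3, torpedo cotyledon 3 and torpedo root 1 and 3. Each array was also correlated with all others, and the medians of these correlations ran from 0.249 to 0.583, with 4 arrays under 0.4: heart cotyledon 2, torpedo root 1 and 3, and torpedo meristem 1. The torpedo apical, basal and meristem values were deposited unrounded and the other arrays with 1 decimal, so for these 3 groups a difference from another group cannot be told apart from a difference in how the values were made. In these bulk captures, fewer cells of a type and less RNA per cell cannot be told apart either.

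LHCB4.1 and LHCB4.2 encode forms of CP29, a minor antenna protein that sits between the core of photosystem II and its outer light-harvesting trimers. The LHCB4.1 intensities of the globular arrays were 61.1, 63.2 and 19.5 in apical tissue and 6.4, 22 and 4.6 in basal tissue. At the heart stage they were 282.6, 11.4 and 731.7 at the cotyledon pole and 200.2, 1986 and 2418 at the root pole. Every globular array lay below every heart root array, while heart cotyledon 2 lay among the globular arrays. At the torpedo stage LHCB4.1 stood at 2563 and 833.8 in cotyledons and at 45.4 and 41.7 in roots. It stood at 2283, 1811 and 1625 in apical tissue and at 2195, 235.5 and 1603 in basal tissue. The meristem arrays read 89.9, 447.5 and 27.7, all below the apical arrays, whereas the 2 root arrays lay within the range of globular apical tissue.

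LHCB4.2 followed a similar course with its own lows. Its globular intensities were 9.3, 153 and 10.5 in apical tissue and 30.2, 103 and 14.8 in basal tissue. Its heart-stage intensities were 278.9, 25.7 and 1682 at the cotyledon pole and 88.1, 957.4 and 967.3 at the root pole. Both heart groups overlapped the globular groups. Torpedo cotyledons gave 2787 and 806.7, and torpedo roots gave 17.9 and 127.3. Torpedo apical tissue gave 1583, 1781 and 2060, basal tissue 2356, 304.3 and 1746, and meristem 54.0, 562.9 and 253.1. Every apical array lay above every globular, root and meristem array. The genes are close paralogs, and whether each probe set detects only its own transcript was not tested.

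PSBW and PSBY encode small membrane-spanning proteins of photosystem II. PSBW was bright from the globular stage on, at 5914, 6019 and 8049 in apical tissue and 6949.5, 7403 and 5543 in basal tissue. Its torpedo apical intensities of 6498, 7607 and 8419 and its basal intensities of 7262, 7736 and 7034 overlapped those of the globular arrays. Low values occurred at the heart cotyledon pole, with 4590.2, 77.5 and 496.8, and in torpedo roots, with 181.8 and 1094. The heart root pole gave 4404, 14058 and 9743, torpedo cotyledons gave 23458 and 13763, and meristem gave 6023, 6022 and 14629. Of the low arrays, heart cotyledon 2 and both torpedo root arrays are among those with a median correlation under 0.4.

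PSBY varied least between groups. Its intensities were 289.4, 214.9 and 208.8 in globular apical tissue and 190.9, 200 and 218.8 in globular basal tissue. Torpedo apical tissue gave 389.9, 545.1 and 439, all above the globular apical arrays. Its other groups ranged from 75.2 on torpedo root 1 to 1794 on heart root 3, and its 9 group means spanned 1.96 on the log2 scale, against a pooled SD within groups of 1.16.

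PSAE-1 and PSAN belong to photosystem I, where PSAE lies on the stromal side at the docking site of ferredoxin and PSAN on the lumenal side near that of plastocyanin. PSAE-1 intensities were 95.8, 101.6 and 5.6 in globular apical tissue and 135.7, 418.5 and 17.8 in globular basal tissue. At the heart stage they were 548.5, 2752 and 2102 at the cotyledon pole and 398.3, 1237.5 and 1343 at the root pole. All heart cotyledon arrays lay above all globular arrays, including heart cotyledon 2, the array on which each of the other 5 genes was lowest in its group. Torpedo cotyledons gave 1843.5 and 1560, apical tissue 1628, 1909.8 and 1519.9, and basal tissue 1904.5, 1436 and 1279.8. Torpedo roots gave 30.8 and 774.2, and meristem gave 845.1, 677.4 and 30.3, so both groups hold an array as low as the globular ones.

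PSAN was highest at the heart root pole, with 439.2, 3806 and 1872, against 367.9, 22.7 and 306.5 at the heart cotyledon pole, and these groups did not overlap, against 1.98% of probe sets lower at the cotyledon pole without overlap. Its globular intensities were 62.5, 476.3 and 74.7 in apical and 154, 367.6 and 9.6 in basal tissue. Torpedo apical tissue gave 1743, 662.8 and 508.8, and basal tissue 1564, 701.6 and 409.9. The pair of torpedo cotyledon arrays lay far apart, at 72.9 and 1212, roots gave 40.9 and 200.4, and meristem gave 712.2, 408.6 and 267.9.

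**Figure D1:**
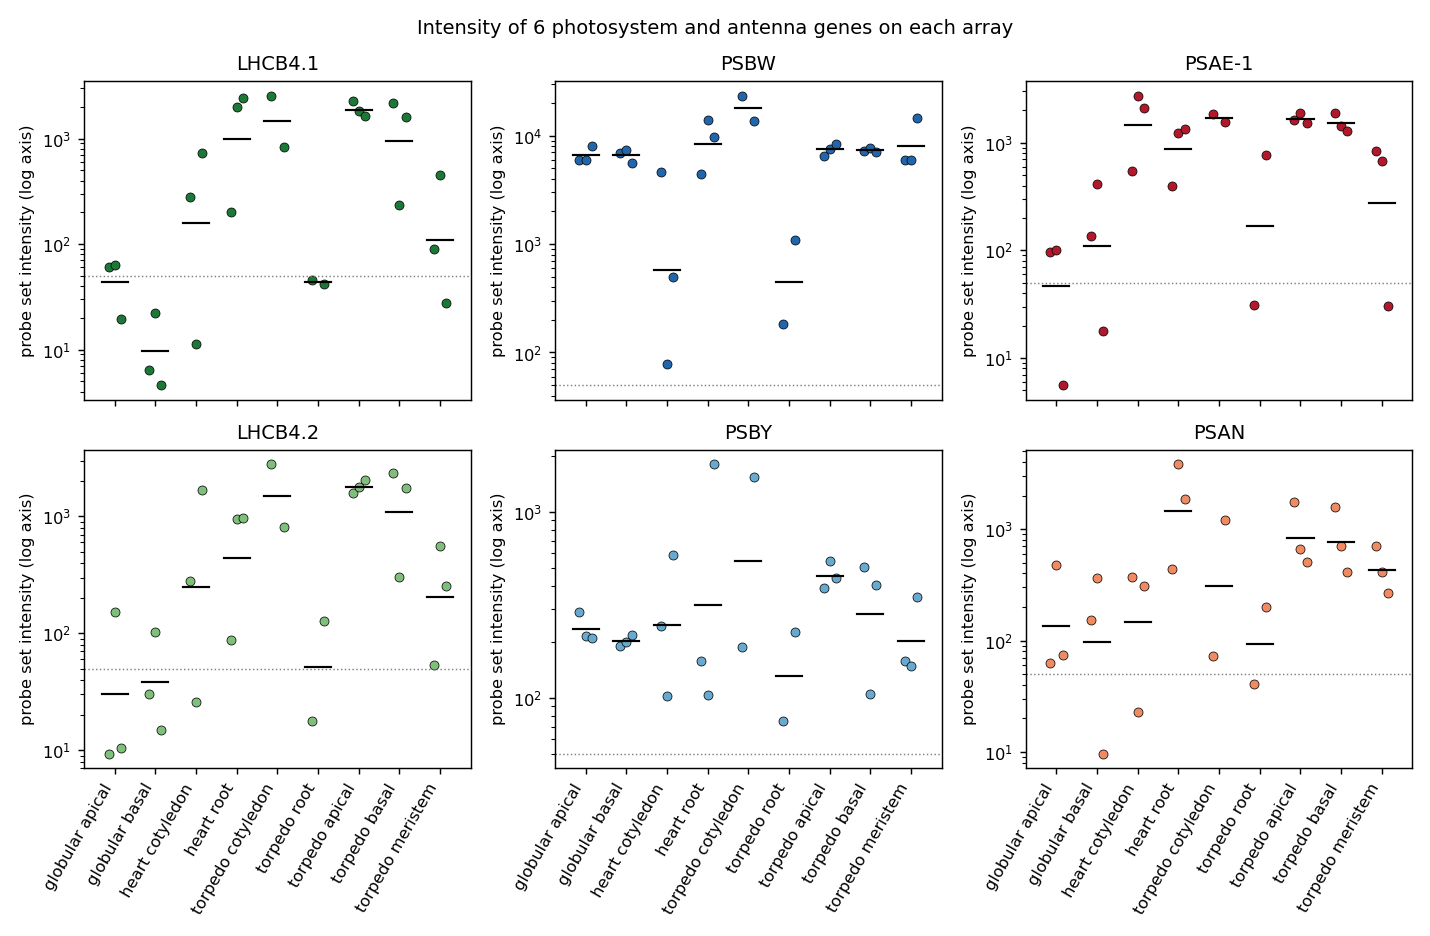
Probe set intensity (log axis) of each gene on each of the 25 arrays with a group, by group; points are arrays, bars are group means taken on the log2 scale, and the dotted line marks the filter level of 50. LHCB4.1, LHCB4.2 and PSAE-1 lie low on the globular arrays and high on the torpedo cotyledon and apical arrays, whereas PSBW is already between 5543 and 8049 on the globular arrays.

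Ordered by group mean, neighbouring groups overlapped for every gene except in 2 places. LHCB4.1 was higher in torpedo root than in globular basal tissue, the lowest group, and PSBW was higher in globular basal tissue than at the heart cotyledon pole, by 3.49 on the log2 scale. The group means of LHCB4.1 spanned 6.59 on the log2 scale, from globular basal to torpedo apical tissue. The spans were 5.49 for LHCB4.2, 5.29 for PSBW, 4.91 for PSAE-1 and 3.84 for PSAN. The pooled SD within groups was 1.53 for LHCB4.1, 1.69 for LHCB4.2, 1.19 for PSBW, 1.57 for PSAE-1 and 1.60 for PSAN.

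A test for any difference among the 9 groups (limma, moderated F, Benjamini-Hochberg adjustment over 20890 probe sets, threshold 0.05) called 1.25% of all probe sets. It called 2 of the 6 genes, LHCB4.1 (F = 8.58, adjusted p = 0.00594) and LHCB4.2 (F = 5.52, adjusted p = 0.0402). The adjusted p was 0.0607 for PSAE-1, 0.165 for PSBW, 0.177 for PSAN and 0.807 for PSBY. With the actin ratio of each array as a covariate, a setting added after the data were seen, neither antenna gene passed: the adjusted p was 0.228 for LHCB4.1 and 0.551 for LHCB4.2. Since that ratio differs between the groups, its part and that of the tissue cannot be told apart by this fit. With the GAPDH ratio as a covariate, also added after the data were seen, LHCB4.1 passed (adjusted p = 0.00665) and LHCB4.2 did not (0.0523). The GAPDH ratio was -3.28 on torpedo root 1 and 6.43 on torpedo root 3, the widest gap within a group. How this covariate acts rests largely on torpedo root 1, so its fits say little about RNA quality on the other arrays.

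Between the globular and torpedo stages both antenna genes and PSAE-1 rose in apical tissue, in a comparison added after the levels had been seen. Differences are given on the scale of log2(intensity + 10). Each of these 3 genes has globular apical readings under the filter level of 50, where the size of a difference is imprecise and depends on the added 10. LHCB4.1 was 5.15 ± 1.13 higher (log2, SE; 3 against 3 arrays; limma adjusted p = 0.0287), LHCB4.2 5.49 ± 1.23 (adjusted p = 0.0309) and PSAE-1 4.89 ± 1.19 (adjusted p = 0.0456). The background share of calls was 0.857% of all probe sets, and 5 of the 6 genes had groups that did not overlap, all higher in torpedo tissue, against 11.5% of all probe sets. PSAN differed by 2.56 (adjusted p = 0.220), PSBY by 0.92 (0.586) and PSBW by 0.18 (0.953). The median of the 6 was 3.73, against -0.52 over all probe sets. None of the 3 calls held with the actin ratio as a covariate, where the difference was 1.46 for LHCB4.1 (adjusted p = 0.822), 2.50 for LHCB4.2 (0.738) and 4.11 for PSAE-1 (0.582). With the GAPDH ratio as a covariate, under the limit given above, LHCB4.1 (5.43, adjusted p = 0.0267) and LHCB4.2 (5.59, 0.0344) passed and PSAE-1 did not (4.39, 0.0512). None held with the hybridization controls as a covariate or without globular apical 3, and leaving out any 1 of the 6 arrays left at most 1 call.

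In basal tissue, in a comparison also added after the levels had been seen, LHCB4.1 rose between the same stages by 5.60 ± 1.13 (log2, SE; limma adjusted p = 0.0365). It was the only call among the 6, against a background of 0.134%. Its globular basal readings of 6.4, 22 and 4.6 all lay under the filter level of 50, so the size of this difference depends on the pseudocount. LHCB4.2 differed by 4.50 (adjusted p = 0.127), PSAE-1 by 3.67 (0.177) and PSAN by 2.87 (0.260), and for these 4 genes the groups did not overlap, against 5.85% of all probe sets. PSBY differed by 0.45 and PSBW by 0.16. The LHCB4.1 call held with the GAPDH ratio as a covariate (5.78, adjusted p = 0.0341), a fit that rests largely on torpedo root 1. It was lost with the actin ratio as a covariate (2.29, adjusted p = 0.605), with the hybridization controls as a covariate, with a pseudocount of 50, and without torpedo basal 4 or 6 or any 1 of the globular basal arrays. BAN, the 1 measured seed coat marker of 5 listed, encodes an enzyme of tannin synthesis and ranged from 13.7 to 444.6 on the globular apical arrays, and from 2.19 to 13.2 on the torpedo apical arrays. AGL62, the 1 measured endosperm marker of 7 listed, ranged from 33.6 to 40.9 and from 4.50 to 21.3 on the same arrays. In basal tissue AGL62 ranged from 27.8 to 88.8 on the globular and from 1.44 to 16.1 on the torpedo arrays, a difference of -1.92 without overlap (adjusted p = 0.240). BAN ranged from 8.5 to 91.8 and from 1.72 to 16.3 there, with overlap. The part of other seed tissues in the differences was not tested.

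Torpedo cotyledon and globular apical arrays were deposited in the same form, and their actin ratios are closer, at 1.84 and 1.12 on the cotyledon arrays. LHCB4.1 was 4.78 higher in torpedo cotyledons (adjusted p = 0.180), LHCB4.2 5.24 (0.173) and PSAE-1 4.91 (0.185). None of the 6 genes passed, against 0.115% of all probe sets, and 4 had groups that did not overlap, all higher in cotyledons, against 10.4%. With the actin ratio as a covariate these differences were 3.38, 4.09 and 4.61, and none passed. The comparison was also added after the levels had been seen, and shares its globular arrays with the apical one above.

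The heart and globular stages were also deposited in the same form. Averaged over both poles, in a comparison added after the levels had been seen, LHCB4.1 was 3.66 ± 0.80 higher at the heart stage (log2, SE; adjusted p = 0.0838) and PSAE-1 3.79 ± 0.84 (adjusted p = 0.0932). LHCB4.2 differed by 2.96 (0.332), PSAN by 1.96 (0.655), PSBY by 0.34 (0.939) and PSBW by -1.56 (0.779). No member passed, against a background of 0.0718%, and the median of the 6 was 2.46, against -0.23 over all probe sets. By pole, LHCB4.1 was 5.67 higher in heart root than in globular basal tissue (adjusted p = 0.0888, with 0.0191% of probe sets called), and its groups and those of PSAN did not overlap, against 2.23% of probe sets. PSAE-1 was 4.70 higher at the heart cotyledon pole than in globular apical tissue (adjusted p = 0.405, with 0.0527% called), without overlap, against 3.01%. PSBW differed by -3.49 in the latter comparison (adjusted p = 0.909), also without overlap, against 5.96% of probe sets lower. Without heart cotyledon 2 the median of the 6 in that comparison was 2.19 in place of 0.88.

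**Figure D2:**
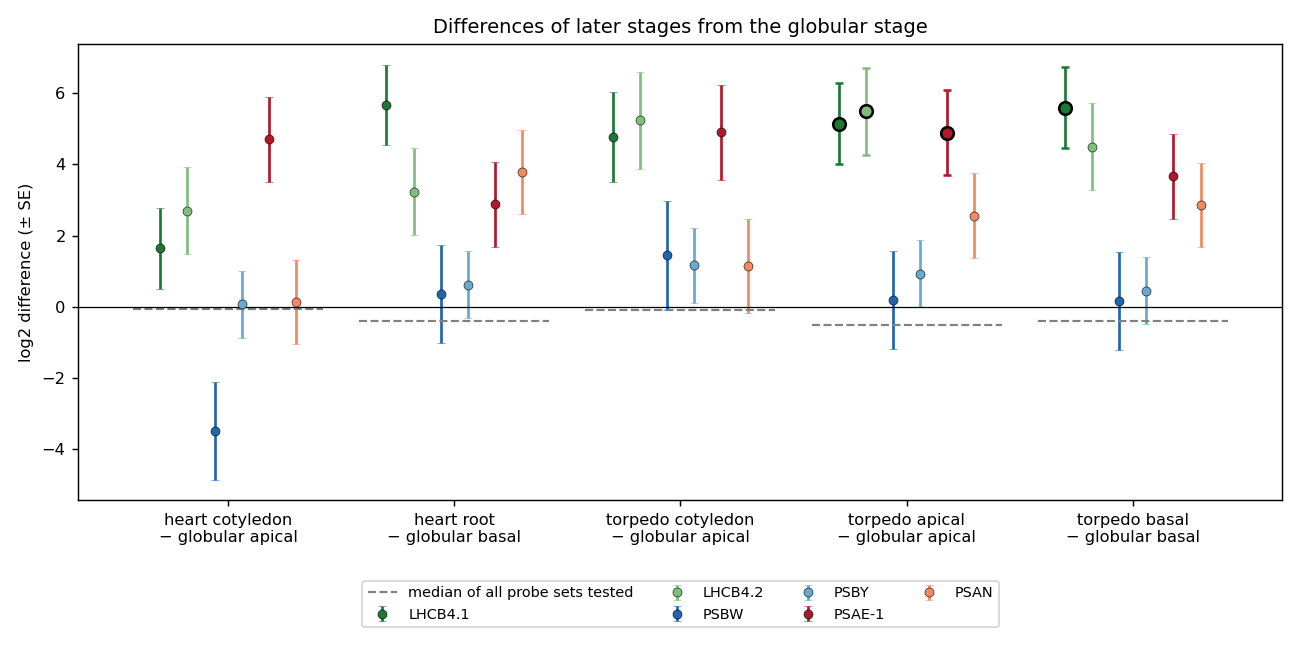
Log2 difference of each gene between a later stage and the globular stage (y axis, ± SE of the fit), for 5 comparisons, with the median of all probe sets as dashed lines; large outlined points passed the threshold. LHCB4.1, LHCB4.2 and PSAE-1 passed in torpedo apical tissue and LHCB4.1 in torpedo basal tissue, while PSBW lies near 0 in both, at 0.18 and 0.16; no call held with the actin ratio as a covariate.

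From the heart to the torpedo stage no member passed in any tissue compared. In torpedo against heart cotyledons all 6 had positive differences, from 0.20 for PSAE-1 to 4.93 for PSBW (adjusted p = 0.399), with 0.0191% of probe sets called. In torpedo against heart roots all 6 were negative, with -4.23 for LHCB4.1 (adjusted p = 0.0997), -4.20 for PSBW (0.158) and -3.84 for PSAN (0.142), and these 3 did not overlap, against 6.58% of probe sets. That comparison called 0.507% of probe sets and had a median of 0.51 over all of them. LHCB4.1 passed there with the GAPDH ratio as a covariate (-5.21, adjusted p = 0.0401). That fit rests largely on torpedo root 1, which belongs to the torpedo root group compared. Both torpedo root arrays have high hybridization controls and a low correlation with the other arrays. In torpedo apical tissue against the heart cotyledon pole, LHCB4.1 differed by 3.51 (adjusted p = 0.161) and PSBW by 3.67 (0.193), with 0.067% called. These differences were 0.26 and 2.11 with the actin ratio as a covariate, and 2.03 and 2.29 without heart cotyledon 2. The median of the 6 was 2.62, and 0.39 and 1.33 under these settings. In torpedo basal tissue against the heart root pole the largest difference was 1.27, for LHCB4.2, with 0.067% called.

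Between poles of the same stage no member passed the threshold. In globular embryos the differences between apical and basal tissue ranged from -1.08 for PSAE-1 to 1.44 for LHCB4.1, and limma called 0 probe sets (0%), with 2.69% at an unadjusted p under 0.05 and none of the members among them. At the heart stage 5 of the 6 genes were lower at the cotyledon than at the root pole, PSBW by -3.85 (adjusted p = 0.676), PSAN by -3.23 (0.711) and LHCB4.1 by -2.59 (0.871), with 0.00957% of probe sets called. The median of the 6 was -1.70, and -0.43 without heart cotyledon 2. PSAE-1 differed by 0.75 in the other direction.

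In torpedo embryos all 6 genes were higher in cotyledons than in roots, by a median of 3.93, against -0.35 over all probe sets. None passed (0.00957% called), and the groups of 4 genes did not overlap, against 10.4% of probe sets higher without overlap. PSBW differed by 5.29 (adjusted p = 0.196), LHCB4.1 by 4.78 (0.174) and LHCB4.2 by 4.61 (0.206). PSAE-1 differed by 3.25 (0.376), PSBY by 1.96 (0.547) and PSAN by 1.62 (0.723). The median was 1.73 with the contradicting arrays added by their tissue description and 2.79 with the actin ratio as a covariate. Both root arrays have high hybridization controls and median correlations of 0.298 and 0.249. Of 9 embryo markers listed, 3 were measured. BBM averaged 7.7 on torpedo root and 279 on torpedo basal arrays, and JKD 18.6 and 98.5. CLV3 went the other way, at 49.95 and 9.99. What tissue the root arrays hold was not tested. The change of the pole difference from heart to torpedo was 9.13 for PSBW (adjusted p = 0.110) and 7.38 for LHCB4.1 (0.112), with 0.0144% of probe sets called. From globular to heart it ranged from -4.03 for LHCB4.1 to 1.83 for PSAE-1, with 0% called at the threshold and 4.43% at an unadjusted p under 0.05.

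Torpedo apical and basal tissue form the second pair of torpedo captures. Their differences ranged from 0.02 for PSBW to 0.99 for LHCB4.1, all with overlapping groups and an adjusted p of 0.999, and 0.091% of probe sets were called. Torpedo basal 5 was the lowest of its group for LHCB4.1, LHCB4.2 and PSBY, and without it the LHCB4.1 difference was 0.0083.

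In meristem against apical tissue, LHCB4.1 differed by -3.98 ± 1.13 (log2, SE; adjusted p = 0.0805), LHCB4.2 by -3.09 (0.155), PSAE-1 by -2.56 (0.207) and PSBY by -1.13 (0.475). These 4 genes had groups that did not overlap, against 9.34% of probe sets lower without overlap, and 0.211% of probe sets were called. PSBW differed by 0.12. The actin ratios of the meristem arrays were -1.56, 2.61 and -0.84, below all apical arrays, and with the ratio as a covariate the LHCB4.1 difference was -0.69 (adjusted p = 0.999). Against basal tissue, LHCB4.1 differed by -2.995 (adjusted p = 0.481) and PSAE-1 by -2.41 (0.519), with 0.0144% called; the PSAE-1 groups did not overlap, against 3.86%, and with the same covariate LHCB4.1 differed by -0.38.

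**Figure D3:**
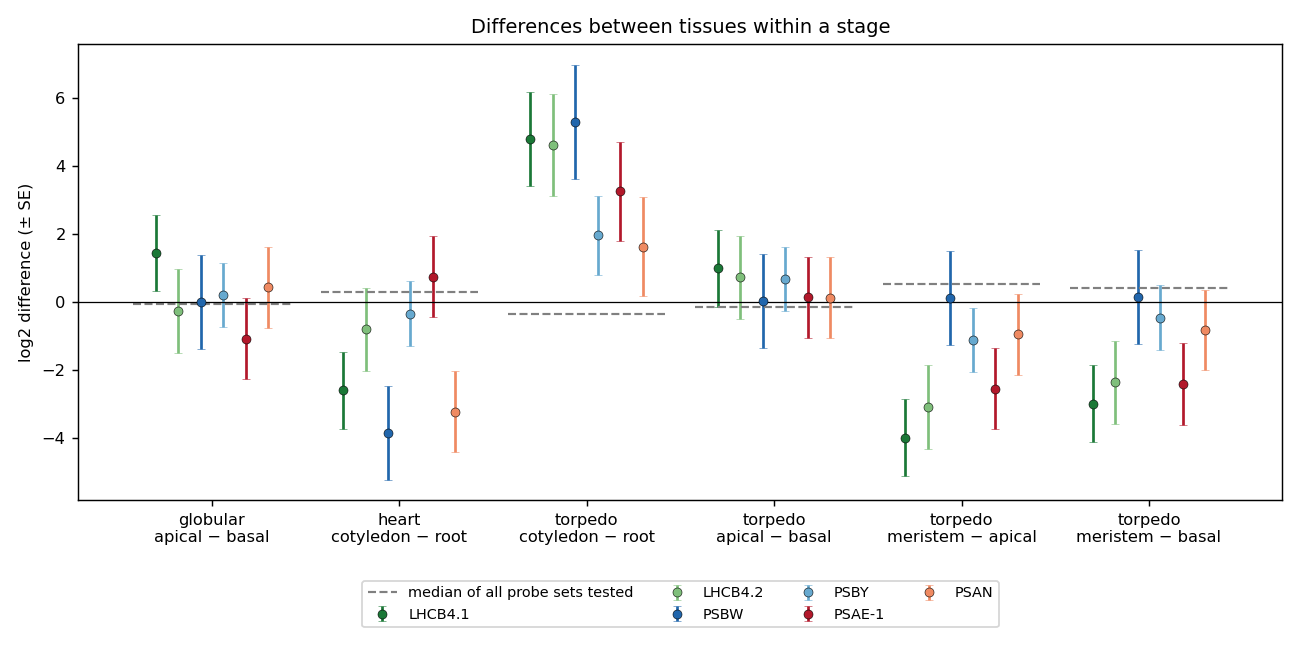
Log2 difference of each gene between tissues of the same stage (y axis, ± SE of the fit), for 6 comparisons, with the median of all probe sets as dashed lines. No point passed the threshold; all 6 genes lie above 0 in torpedo cotyledon against root, and PSBW lies near 0 in both meristem comparisons.

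On several arrays most of these genes lay on the same side of their group means. The same deviations were not computed for all probe sets, so whether whole arrays shifted was not tested. All 6 genes lay below their group mean on heart root 1, by a mean of -1.53 on the log2 scale, and all 6 lay above it on heart root 3, by 1.00. On heart cotyledon 2, 5 of 6 lay below, with a mean of -1.86, and PSAE-1 was the exception. Torpedo basal 5 had 5 of 6 below, with a mean of -0.87, torpedo root 1 had 5 of 6 below, with -1.04, and globular basal 3 had 5 of 6 below, with -1.02. In the other direction, heart cotyledon 3 had 1 of 6 below, with a mean of 1.23. So did torpedo root 3, with 1.04, and globular basal 2, with 0.96. Torpedo root holds 2 arrays, so the deviations of torpedo root 1 and 3 are equal and opposite by construction. The 3 torpedo apical arrays had the narrowest range of the 9 groups, with mean deviations from -0.12 to 0.11.

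**Figure D4:**
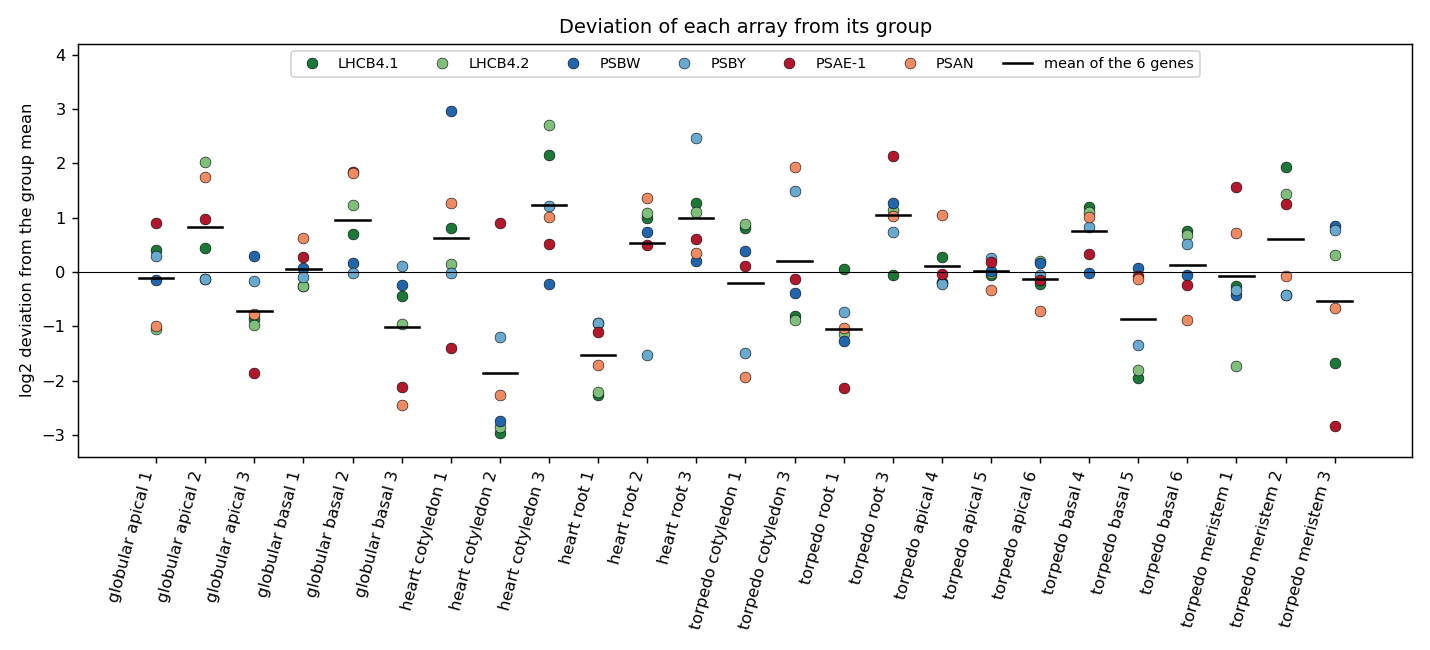
Log2 deviation of each gene from its group mean on each of the 25 arrays (y axis), with bars for the mean of the 6 genes. Heart cotyledon 2 and heart root 1 have the lowest means, -1.86 and -1.53.

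The antenna genes were the most alike pair. Over the 25 arrays the log2 values of LHCB4.1 and LHCB4.2 had a Pearson correlation of 0.914, and their deviations from the group means one of 0.817. PSAE-1 correlated with them at 0.710 and 0.724 over the arrays and at 0.331 and 0.304 within groups. PSBW correlated with PSAE-1 at -0.014. These are descriptions across arrays that share their labelling and scaling.

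**Figure D5:**
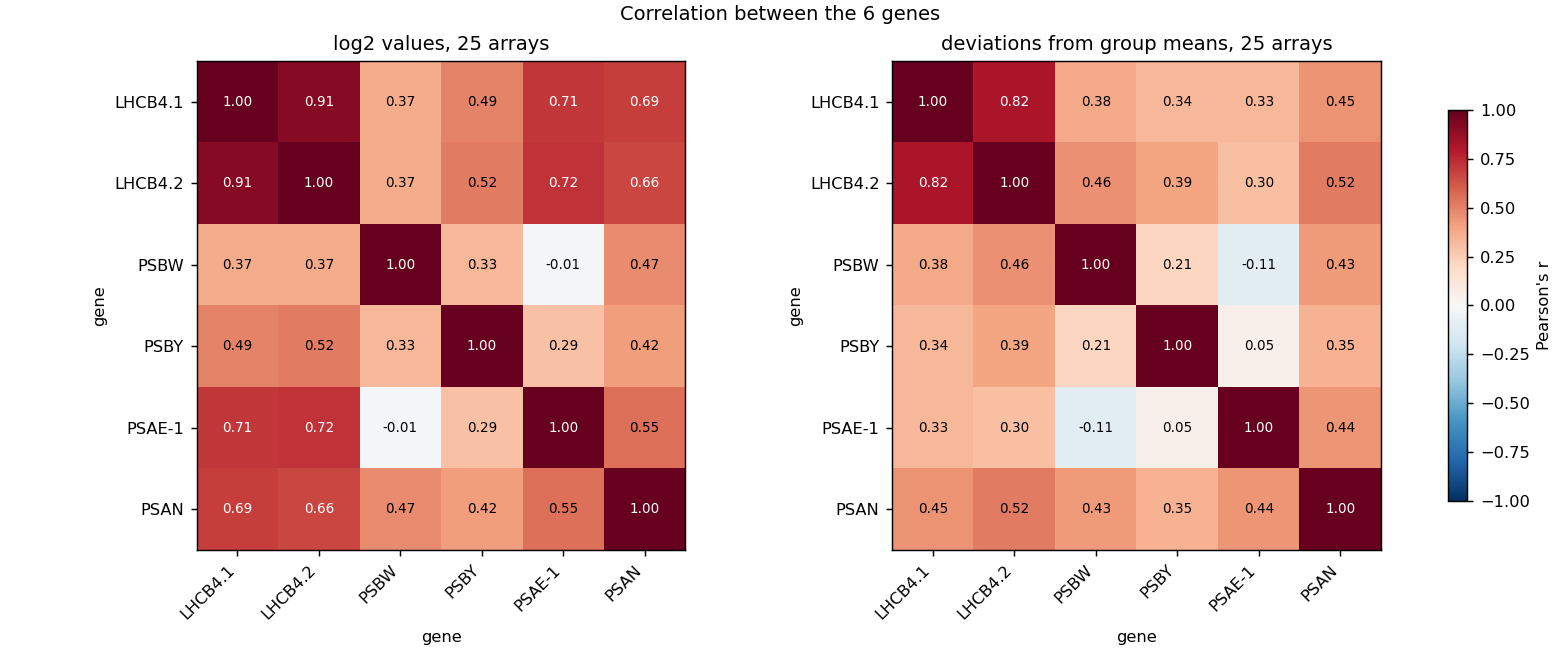
Pearson correlation between the 6 genes over 25 arrays, for log2 values (left) and for deviations from group means (right). LHCB4.1 and LHCB4.2 reach 0.914 and 0.817; PSBW and PSAE-1 lie near 0.

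Of the other genes of photosynthesis listed for comparison, 8 outside the 6 had a probe set matching 1 gene: PSB27, LHCB4.3, ATPC1, CHLI2, CHLM, PORB, RCA and PRK. None of them passed in any comparison. All 8 were higher in torpedo apical than in globular apical tissue, by a median of 1.84, with 3.41 for ATPC1, a subunit of the plastid ATP synthase (adjusted p = 0.0906), and 2.71 for LHCB4.3, the third CP29 gene (0.109). Over all probe sets 34.2% were higher in that comparison. All 8 were higher in torpedo cotyledons than in globular apical tissue, by a median of 0.75, against 46.1% of all probe sets. All 8 were lower in meristem than in torpedo apical tissue, by a median of -1.34, where 65.4% of all probe sets were higher. In torpedo cotyledon against root 7 of 8 were higher, by a median of 0.62, against 38.7% of all probe sets. The 8 also went with the 6 genes in torpedo basal against globular basal tissue. All 8 were higher there (median 0.88), against 36.5% of all probe sets. In torpedo apical tissue against the heart cotyledon pole 7 of 8 were higher (median 1.24), against 35.9%. In meristem against torpedo basal tissue 7 of 8 were lower (median -0.69), where 66.2% of all probe sets were higher. They were divided in the next comparisons, where most or all of the 6 genes went the same way. In heart root against globular basal tissue, where all 6 were higher, 3 of 8 were higher (median -0.21), against 30.3% of all probe sets. The median over all probe sets there was -0.41. In torpedo root against heart root, where all 6 were lower, 4 of 8 were lower (median -0.05). Over all probe sets 66.1% were higher in that comparison (median 0.51). At the heart stage 4 of 8 were higher at the cotyledon pole (median 0.10), against 65.7% of all probe sets. LHCB4.3 differed by 1.52 there and LHCB4.1 by -2.59. Of 10 regulators of photosynthesis genes listed, 0 had such a probe set.

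Among probe sets of 1 gene outside the 6, the log2 values of OLEO3, an oleosin of seed oil bodies, were most like the mean of the 6 genes, with a Pearson correlation of 0.890 over 25 arrays and 0.949 over the 9 group means. It was followed over the arrays by psbI, a plastid gene of photosystem II (0.814), AT2G37220 (0.812), AT3G02900 (0.785), SAMDC (0.777) and AT2G42220 (0.752). Of the members themselves, LHCB4.2 (0.936) and LHCB4.1 (0.935) correlated most with this mean, which includes them. PSAN reached 0.822, PSAE-1 0.749, PSBY 0.594 and PSBW 0.520. A likeness to the mean is therefore not a likeness to each of the 6 genes. OLEO3 intensity averaged 113.3 in globular apical tissue, 8559 in torpedo cotyledons, 306.7 in torpedo roots and 3968 in torpedo apical tissue.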

How the data were processed

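Values are probe set intensities on a linear scale, made by the authors with MAS5, per the submitters' processing notes, which name no version or settings. Each array averages about 100 after trimming 2% at each end, so the values were taken as scaled. Groups came from titles; the pair of arrays with contradicting labels was left out. Probe sets were named from a platform table updated through RefSeq (TAIR10.1), and those with several genes were not named.

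A pseudocount of 10 was added before log2. Tests covered the 20890 probe sets, without the 64 controls, whose value was 50 or more on 2 or more of the 25 arrays. The model was limma's (version 3.58.1, R 4.3.3), with 1 mean per group over 25 arrays and eBayes with an intensity trend. Its 2-sided p-values were adjusted by Benjamini-Hochberg per comparison, and an adjusted p under 0.05 counted as a call. The fit was tried on simulated data with independent noise per probe set and no shared array effects. That check does not cover the differences in array quality given above. The number of arrays limits the precision. The labels do not say whether replicate numbers pair the arrays, and the main fit did not pair them.

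The 6 genes are always named, each by its brightest probe set of 1 gene; of each list, up to 4 genes past the threshold are named; and the 6 other genes most correlated with the mean of the members are named. List genes that did not pass were named after their values were seen. Members and lists were chosen with earlier results of these data known. Alternatives covered normalization, pseudocount, filter, trend, array weights, groups in the fit, a replicate block and leaving out each array. Added after the data were seen were 4 comparisons and the fits with hybridization controls, the actin ratio or the GAPDH ratio as a covariate. So were the fits without the arrays of high hybridization controls and without those of low correlation. The scanner files were not analysed here.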

Additional observations from a re-analysis of the deposited data

How the results depend on the processing

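Over 114 results for single genes, 2460 values were computed under other settings. None that passed the threshold changed sign, 54 lost the threshold and 28 gained it, and 95 values that passed neither way changed sign. For any difference among the 9 groups, 2 members passed, and 1 once the contradicting arrays joined by tissue description, 1 with the hybridization controls as a covariate, 0 with the actin ratio, 1 with the GAPDH ratio and 1 to 3 without single arrays; LHCB4.1 passed in 37 of 38 settings and LHCB4.2 in 22. For torpedo against globular apical tissue, 3 passed, and 0 without the arrays of high hybridization controls, 0 with the hybridization controls or the actin ratio as a covariate, 2 with the GAPDH ratio and 0 to 1 without single arrays. For torpedo against globular basal tissue, 1 passed, and 0 with a pseudocount of 50, 3 with array weights, 0 with the hybridization controls or the actin ratio and 0 to 1 without single arrays. Where 0 passed, array weights gave 1 for meristem against apical tissue, 1 for heart root against globular basal tissue and 2 for heart against globular. The GAPDH ratio as a covariate, which rests largely on torpedo root 1, gave 1 for torpedo root against heart root. A fit on only the groups compared gave 1 for meristem against apical tissue. For the change of the pole difference from heart to torpedo, 1 passed when the intensity trend was dropped and 1 when the pseudocount was 50. For heart against globular, 1 passed without the arrays of low correlation. Without single arrays the count was 0 to 2 for heart against globular, and 0 to 1 for meristem against apical tissue, heart root against globular basal tissue, torpedo apical tissue against heart cotyledon and the change of the pole difference. Why calls were lost or gained under a setting was not tested. Leaving out an array also leaves fewer arrays in its group.

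The correlations of deviations between same-numbered arrays ranged from -0.117 to 0.380, and in no comparison of 3 pairs did every pair exceed 0.1. With so few arrays per group this check cannot exclude that same-numbered arrays were captured together. With the replicate block 0 members passed in every comparison it could be fitted for, as without it; LHCB4.1 in heart root against globular basal tissue stayed at 5.67 (limma adjusted p = 0.155). Each gene has 1 probe set of its own, so no other probe set could be tried. Readings under 50, the filter level, were frequent for LHCB4.1 (8 of 25 arrays) and LHCB4.2 (6), which makes their lowest levels imprecise.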

Other observations

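The 2 torpedo arrays with contradicting labels are given by title. The array titled cotyledon and described as root read 322.7 for LHCB4.1, 406.2 for LHCB4.2, 11048 for PSBW, 402.1 for PSBY, 763.9 for PSAE-1 and 718.2 for PSAN. The array titled root and described as cotyledon read 164.7 for LHCB4.1, 16.1 for LHCB4.2, 11870 for PSBW, 370.6 for PSBY, 297.5 for PSAE-1 and 1939.6 for PSAN. Their actin ratios were 1.70 and -2.39, and the hybridization controls of the second stood at 49046.5.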
